A study of Mus musculus with 11 samples.

Results

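Semaphorins, plexins, Slits, Robos, netrins, Unc5 receptors and Dcc are the ligands and receptors of 3 classical axon guidance systems, and their RNA was followed here in ribosomes pulled down from Purkinje cells with and without the Tie2 receptor. The genes were taken by a rule on the gene symbols of the deposited count files. The rule found 48 of 55421 genes. Of these, 45 encode proteins of the families (20 semaphorins, 9 plexins, 3 Slits, 4 Robos, 4 netrins, 4 Unc5 receptors and Dcc) and 3 are antisense transcripts of Plxna4 that share its symbol stem. Enough reads were present to test 31 of the 48, and the other 17 had at most 87 reads each over all libraries.

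Semaphorins are secreted, membrane-bound or lipid-anchored proteins that signal through plexins, with neuropilins as coreceptors for most secreted members, and they turn, stall or repel growing axons and dendrites. Slits are secreted proteins that repel neurites through Robo receptors. Netrins attract through Dcc, and repel when an Unc5 receptor takes part. In the cerebellum these families guide precerebellar and granule neurons and act on Purkinje dendrites and their synaptic inputs.

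The knockout mice were Pcp2Cre;Tie2flox/flox;Rpl22HA/HA and the controls were Pcp2Cre;Rpl22HA/HA, so both genotypes carried the Cre and the HA-tagged ribosomal protein, and the floxed Tie2 gene (symbol Tek) was carried by the knockouts alone. Cre under the Pcp2 promoter switches on the tagged Rpl22, and the promoter is what limits the tag to Purkinje cells. It is active without induction. Markers of other cells still had reads in every library, as given below, so the levels are those of the pull-down. Whole cerebellum was taken at postnatal day 56, ribosomes were precipitated with an anti-HA antibody, and the bound RNA was sequenced. There were 4 knockout and 7 control libraries in 3 batches: batch 1 held 2 knockouts and 1 control, batch 2 held 1 of each, and batch 3 held 1 knockout and 5 controls. Each library carries its own animal tag (such as M456), but the labels do not state outright that every tag is a separate animal, so p-values measure the spread between these libraries.

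Reads in genes ranged from 2583227 to 4199299 in the knockouts and from 4087197 to 5142671 in the controls. Tek itself had 0, 7, 0 and 14 reads in knockouts F371, M374, M390 and M456. In the controls it had 1 read in M379, 0 in M386, 12 in F473, 11 in M476, 21 in M477, 8 in M479 and 40 in M480. The groups overlap, so these whole-gene counts do not check the genotype labels. Markers of Purkinje cells summed to 7746 to 10474 CPM (read counts scaled to one common library total, with TMM factors) in the knockouts and 7983 to 9470 CPM in the controls. A score of granule cell, glial and oligodendrocyte markers minus Purkinje markers was 0.72 log2 units higher in the knockouts within batches, and log2 library size differed by -0.47. Each difference had a two-sided exact permutation p of 0.0278, the smallest that 36 arrangements allow. Knockout M456 had both the fewest reads and the highest score (-2.38, against -3.99 to -2.99 in the controls).

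The members' levels were concentrated in a few genes. In the controls, 7 genes made up 72.5% of the summed CPM of the 48: Sema4g, Robo2, Plxna4, Sema3a, Unc5c, Unc5d and Sema7a. CPM is not divided by gene length, which was not used here, so the order is one of reads and not of RNA molecules. The 48 genes together took 969 to 1453 CPM in the controls and 1093 to 1641 CPM in the knockouts. A read was found for 33 to 44 of them in a control library and for 38 to 42 in a knockout library.

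**Figure D1:**
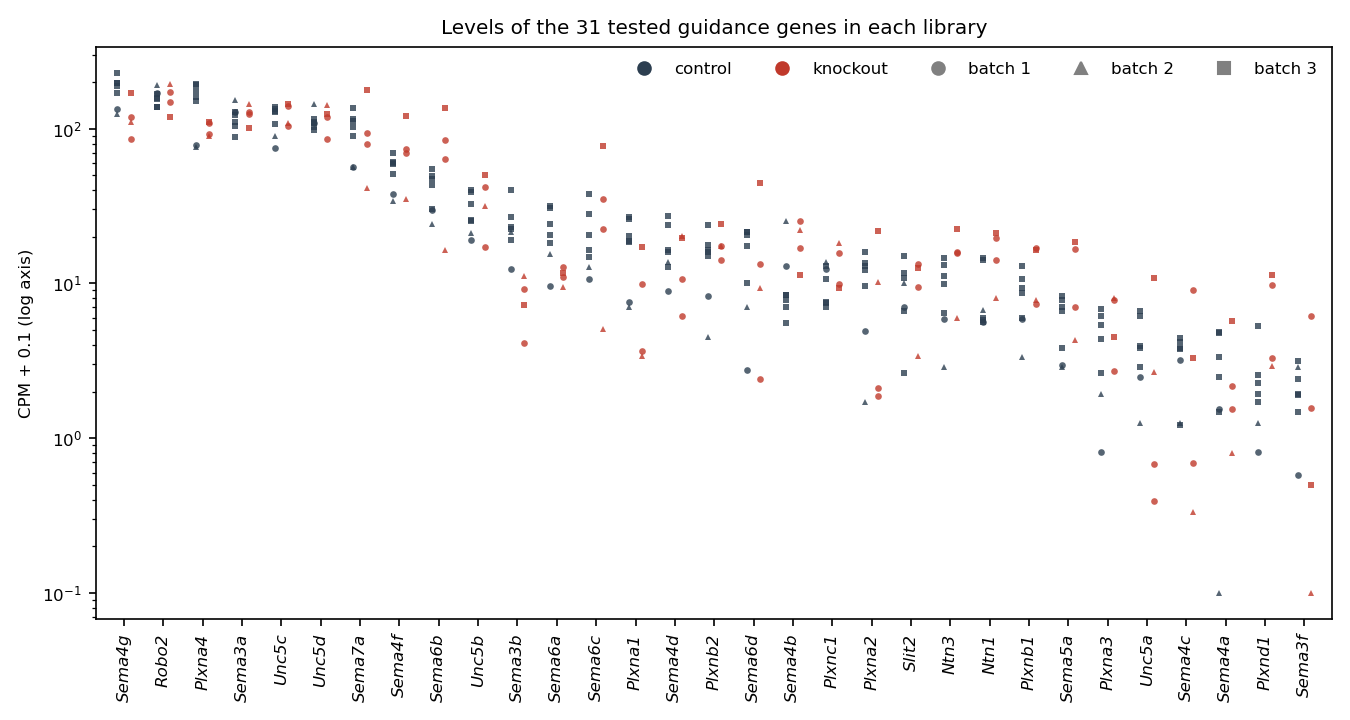
CPM plus 0.1 on a log axis for each of the 31 tested genes, 1 point per library, controls dark and knockouts red, with the marker shape giving the batch. Sema4g, Robo2 and Plxna4 had the highest mean control CPM.

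Among the ligands, Sema4g, a membrane-bound class 4 semaphorin that binds Plexin-B2, had the highest control level, 177 ± 37.0 CPM (SD, n = 7; lowest 125, median 189, highest 228). Its levels in the knockouts were 119 CPM in F371, 84.9 in M374, 110 in M390 and 170 in M456. The groups overlapped only through M456, which exceeded the controls of batches 1 and 2, and the fit put the log2 fold change at -0.26 ± 0.13 (SE; adjusted p of 0.13 from edgeR), with log2 ratios of -0.39, -0.18 and -0.21 in batches 1, 2 and 3. Sema3a, a secreted repellent that signals through neuropilin 1 and class A plexins, stood at 119 ± 21.0 CPM in the controls (lowest 87.6, median 122, highest 153). Knockouts F371, M374, M390 and M456 had 127, 124, 144 and 101 CPM, all within that range, for a log2 fold change of -0.08 ± 0.13 (edgeR adjusted p = 0.67). The log2 ratio within each batch was between -0.13 and -0.02.

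Sema7a, a lipid-anchored semaphorin that signals through integrins and Plexin-C1, had 95.1 ± 30.0 CPM in the controls (lowest 56.2, median 102, highest 135). The knockouts were spread more widely, with 94.0 CPM in F371, 79.3 in M374, 41.2 in M390 and 177 in M456. M390 was below every control and M456 above every control. The log2 fold change was 0.40 ± 0.19 (edgeR adjusted p = 0.12), and the log2 ratio in batch 2 had the other sign (0.62, -0.44 and 0.67 in batches 1, 2 and 3).

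Of the receptors with many reads, Robo2, a Slit receptor, had 159 ± 18.4 CPM in the controls (lowest 138, median 156, highest 190). The knockouts had 148 CPM in F371, 172 in M374, 193 in M390 and 118 in M456, with M390 just above and M456 below the control range. The log2 fold change was -0.16 ± 0.12 (edgeR adjusted p = 0.34; -0.07, 0.02 and -0.35 within the batches). Plxna4, a receptor for class 3 and class 6 semaphorins, had 146 ± 49.7 CPM in the controls (lowest 76.2, median 160, highest 195). Its knockout values were close together, at 108, 92.5, 89.1 and 110 CPM in F371, M374, M390 and M456. The low controls were those of batches 1 and 2, and the log2 fold change with batch in the model was -0.08 ± 0.18 (edgeR adjusted p = 0.78). Within batches 1 and 2 the log2 ratio was above 0 (0.35 and 0.22) and within batch 3 below it (-0.66). Plxna4 overlaps the antisense gene Plxna4os1, and none of the sources used here says whether the counting used strand.

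The Unc5 receptors, which mediate repulsion by netrins, were all tested and none passed. Unc5c, whose loss disturbs cerebellar development in mice, had 115 ± 24.6 CPM in the controls (lowest 74.8, median 128, highest 138) and 140, 104, 108 and 144 CPM in knockouts F371, M374, M390 and M456. F371 and M456 were above every control, the ratio was above 0 on the log2 scale in each of the 3 batches (0.70, 0.27 and 0.17), and the fitted log2 fold change was 0.37 ± 0.15 (edgeR adjusted p = 0.071). Unc5d had 112 ± 15.2 CPM in the controls (lowest 97.8, median 109, highest 144) and 119, 85.5, 142 and 125 CPM in the same knockouts, with a log2 fold change of 0.06 ± 0.13 (edgeR adjusted p = 0.77; -0.09, -0.02 and 0.22 within the batches).

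Unc5b had 28.9 ± 8.38 CPM in the controls (lowest 18.9, median 25.7, highest 39.8). In knockouts F371, M374, M390 and M456 it had 42.1, 17.1, 31.5 and 49.9 CPM. F371 and M456 exceeded all controls while M374 was under all of them, and the log2 fold change of 0.62 ± 0.27 missed the threshold (edgeR adjusted p = 0.10), with log2 ratios of 0.63, 0.58 and 0.61 in the 3 batches. Unc5a was low in both groups, at 3.79 ± 1.93 CPM in the controls and 3.56 ± 4.92 CPM in the knockouts (n = 4). Dcc, the attractive netrin receptor, was too low to test, with 22 reads over the 4 knockouts and 22 over the 7 controls.

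The controls themselves differed between batches for most of the members. In 21 of 31 tested members, the 5 controls of batch 3 did not overlap the 2 controls of batches 1 and 2, against 37.1% of all 13375 tested genes. In 19 of them the batch 3 controls were higher, against 19.2% of all tested genes. Plxna4 averaged 174 CPM in the batch 3 controls and 77.3 CPM in the other controls, a ratio of 2.25. Robo2 and Sema4b had lower levels in batch 3, with mean ratios of 0.842 and 0.385. Batch 3 holds 5 of the 7 controls and 1 of the 4 knockouts, so batch was a term of the main model.

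The comparison of knockout with control asks whether loss of Tie2 from Purkinje cells, where the series' design places it, goes with a change in these genes' ribosome-bound RNA. Of the 31 tested members 7 passed an adjusted p of 0.05. Sema4f, Sema5a and Sema6b (ligands), Plxnb2 and Plxnd1 (receptors) and Ntn3 (a netrin) were higher in the knockouts, and Sema3b (a ligand) was lower. This is 22.6% of the members, close to the 24.4% of all tested genes that passed. Higher calls made up 19.4% of the members against 10.9% of all genes, and lower calls 3.23% against 13.4%. The median log2 fold change was 0.40 over the members and -0.02 over all tested genes. In bulk libraries fewer cells of a type and less RNA per cell cannot be told apart.

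By family, 3 of 15 tested semaphorins rose, 1 fell and 11 did not pass, with a median log2 fold change of 0.40. Among the 8 tested plexins 2 rose and 6 did not pass (median 0.76). Ntn3 rose and Ntn1 did not pass, and none of the 4 Unc5 receptors passed (median 0.35). The tested Slit (Slit2, log2 fold change 0.06) and the tested Robo (Robo2) did not pass. Knockout and control libraries did not overlap in 1 member, Sema3b, against 12.9% of all tested genes. The log2 ratio had the same sign in all 3 batches for 16 of 31 members, against 48.5% of all tested genes.

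**Figure D2:**
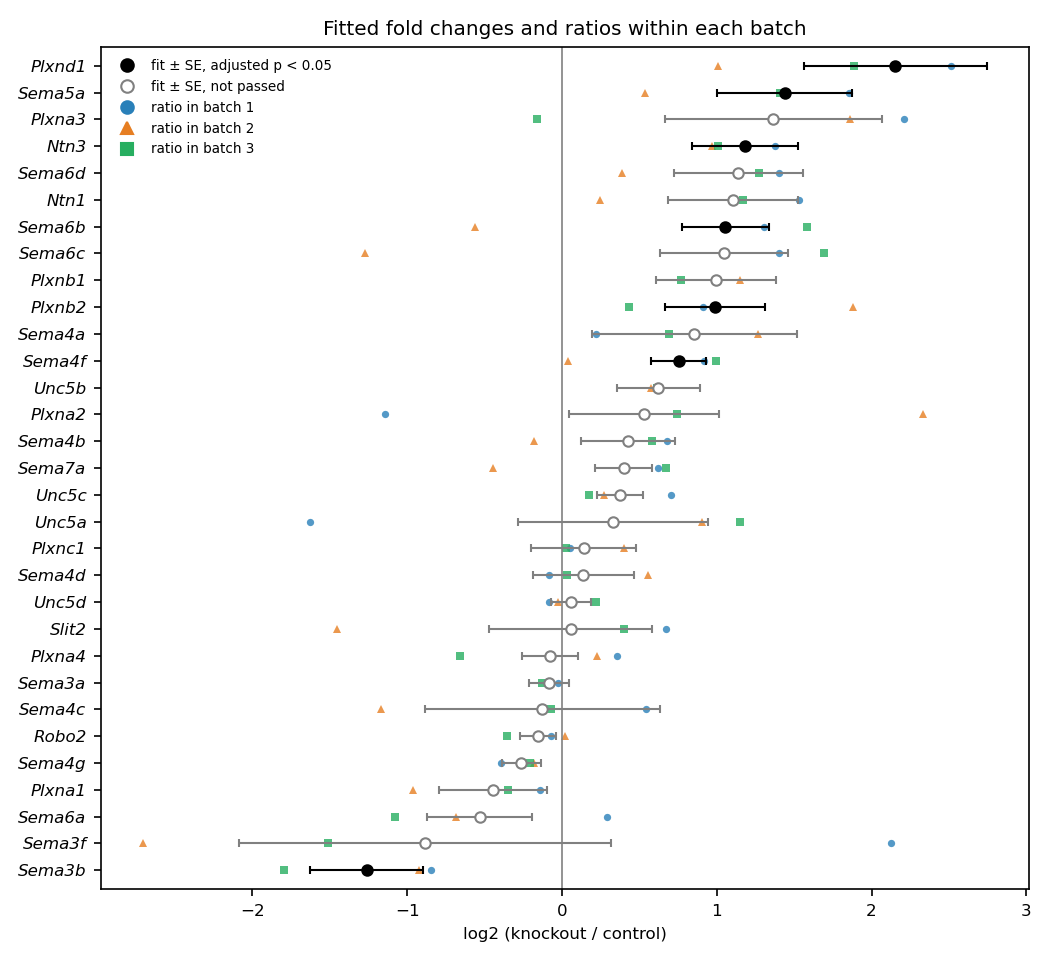
Fitted log2 fold changes of the knockouts against the controls for the 31 tested genes, with SE bars, filled where the adjusted p was under 0.05, and the log2 ratio within each batch as coloured points. The batch 2 point of Sema6b lies below 0 at -0.56 although its fitted value is 1.06.

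**Figure D3:**
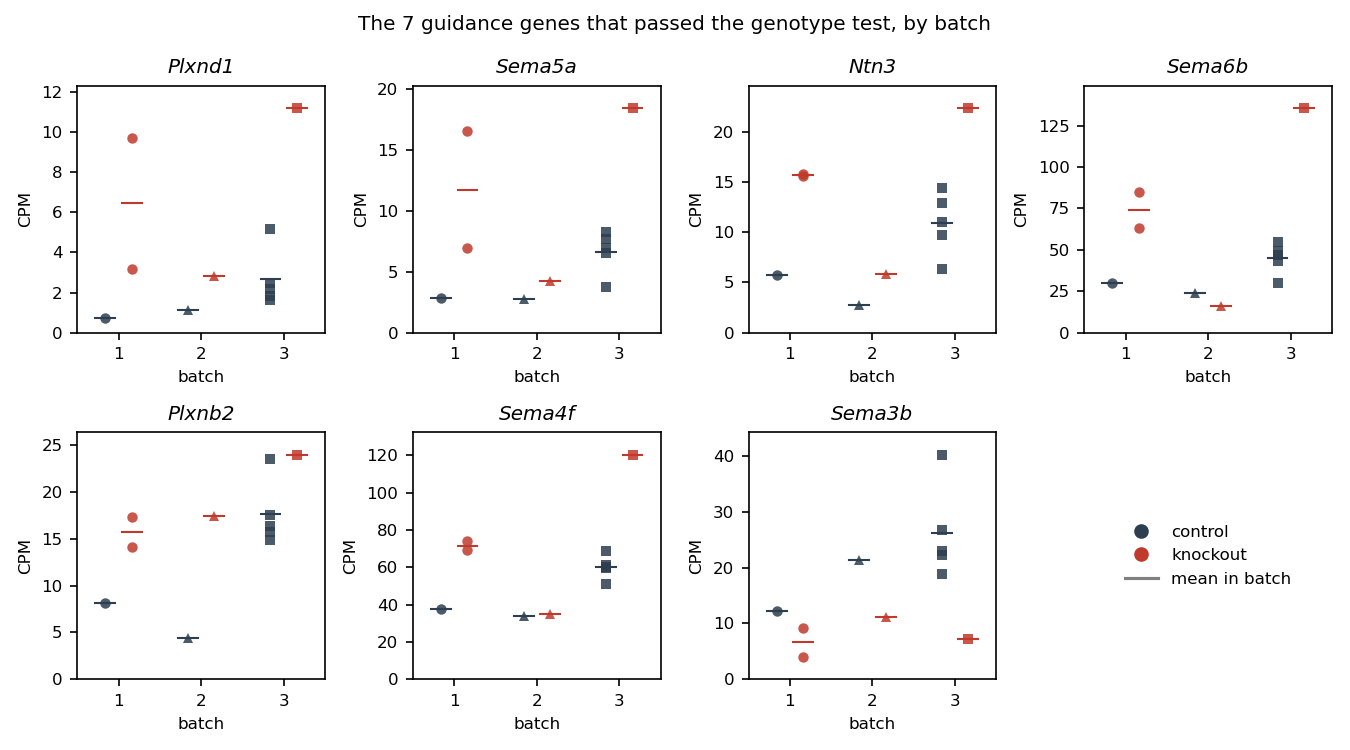
CPM of the 7 genes that passed, by batch (linear axis from 0), controls dark and knockouts red, with a dash at each mean within a batch. The knockout of batch 3, M456, is the highest library for each of the 6 genes that rose.

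Counts over the member list changed when single libraries were left out or 2 library measures were added. Without knockout M456 (the only knockout of batch 3) 0 members passed edgeR's test, although 9 had an unadjusted p under 0.05. Likewise 0 passed without control M379 (the only control of batch 1), although 11 had an unadjusted p under 0.05. With batch as a term, leaving out either library also removes its whole batch from the genotype comparison. These settings therefore cannot tell that library's own values from the lost comparison. With the marker score as a covariate 0 passed (5 with an unadjusted p under 0.05), and with log2 library size 0 passed (3 with an unadjusted p under 0.05). Both measures differed between the genotypes within batches as far as the 36 arrangements allow, so each shares much of the genotype comparison. The SE of Sema4f went from 0.18 to 0.28 with either, and the loss of calls does not separate the measure from genotype. Over all genes there were fewer calls in the same settings: 2.43% passed without M456, 3.93% without M379 and 0 with either covariate. DESeq2 called 11 members (35.5%, against 31.2% of all genes). Without a batch term 3 members passed (9.68%, against 25.1% of all genes), Sema6a, Sema4g and Sema3b, all lower in the knockouts.

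Sema4f (ENSMUSG00000000627, chr6:82911884-82939769 on GRCm38.p6, RefSeq) is a membrane-bound class 4 semaphorin. It had 73.8 CPM in F371, 69.3 in M374, 34.8 in M390 and 120 in M456. The controls ran from 33.8 through a median of 59.4 to 68.9 CPM (mean 53.1 ± 13.0, n = 7). Of the 4 knockouts 3 were above all controls, and M390 was level with the batch 2 control. Sema4f rose, with a log2 fold change of 0.75 ± 0.18 (edgeR adjusted p = 0.0085), and its ratios in batches 1, 2 and 3 were 0.92, 0.04 and 1.00 on the log2 scale. Without M456 the adjusted p was 0.20 and without M379 it was 0.064. With the marker score or library size as a covariate the log2 fold change was 0.53 or 0.50. The other tested class 4 semaphorins, which are membrane-bound too, did not pass. The log2 fold change was 0.85 for Sema4a, 0.43 for Sema4b, -0.13 for Sema4c, 0.14 for Sema4d and -0.26 for Sema4g.

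Sema6b (ENSMUSG00000001227, chr17:56123085-56140343) is a transmembrane semaphorin that binds class A plexins. It had 84.8, 63.4, 16.2 and 135 CPM in F371, M374, M390 and M456. The controls ran from 24.2 through a median of 43.0 to 54.9 CPM (mean 39.7 ± 11.7). M390 was below all controls and the other knockouts were above all of them. The fit gave a log2 fold change of 1.06 ± 0.28 (edgeR adjusted p = 0.016), and the log2 ratio in batch 2 had the other sign (1.30, -0.56 and 1.58). With library size as a covariate the value was 0.12 (edgeR adjusted p = 0.93), with the marker score 0.84 (0.46), and without M456 0.52 (0.46). Sema6c, a relative in the same class, followed the same order of knockouts (34.9, 22.4, 4.94 and 77.1 CPM) against controls of 10.5 to 37.7 CPM (median 16.4), with a log2 fold change of 1.05 ± 0.41 (edgeR adjusted p = 0.075). Its batch 2 log2 ratio had the other sign too (1.40, -1.27 and 1.70).

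Sema6d, another class 6 semaphorin, had 2.31, 13.3, 9.17 and 44.3 CPM in the same knockouts and 2.64 to 21.4 CPM in the controls (median 17.3). Only M456 was above the controls, and the log2 fold change of 1.14 ± 0.42 missed the threshold (edgeR adjusted p = 0.059; 1.40, 0.39 and 1.27 within the batches). The fourth member of the class, Sema6a, had a log2 fold change of -0.53 ± 0.34 (edgeR adjusted p = 0.26; 0.29, -0.68 and -1.08 within the batches), and its knockouts spanned 9.41 to 12.7 CPM.

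Sema5a (ENSMUSG00000022231, chr15:32244813-32696341) is a transmembrane semaphorin with thrombospondin repeats. It had 6.92, 16.5, 4.23 and 18.4 CPM in F371, M374, M390 and M456. Its controls ran from 2.76 through a median of 6.53 to 8.22 CPM (mean 5.53 ± 2.34). M374 and M456 were above all controls, and F371 and M390 lay within their range. The log2 fold change was 1.44 ± 0.44 (edgeR adjusted p = 0.027), with log2 ratios of 1.86, 0.54 and 1.41 in the 3 batches. M374 and M456 are also the libraries with the highest marker scores (-2.66 and -2.38). With that score as a covariate the log2 fold change was 0.30, and with library size 1.52. The score was itself higher in the knockouts within batches, and its part in this rise was not tested.

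Sema3b (ENSMUSG00000057969, chr9:107597674-107609241), a secreted class 3 semaphorin, moved the other way. Its levels were 4.04 CPM in F371, 9.14 in M374, 11.1 in M390 and 7.19 in M456. The controls ran from 12.2 through a median of 22.3 to 40.2 CPM (mean 23.5 ± 8.61). Every knockout was below every control, with log2 ratios of -0.84, -0.92 and -1.80 in batches 1 to 3. Sema3b fell by 1.26 ± 0.37 on the log2 scale (edgeR adjusted p = 0.022), and its value was -1.29 with the marker score and -1.20 with library size as a covariate. It did not pass in those fits, nor without M456 (adjusted p = 0.21) or M379 (adjusted p = 0.075). The gene overlaps Lsmem2. The other tested class 3 semaphorins, Sema3a and Sema3f (log2 fold change -0.88 ± 1.20, edgeR adjusted p = 0.62), did not pass.

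Among the plexins, Plxnd1 (ENSMUSG00000030123, chr6:115954811-115995339) had the greatest fitted change of the 31. It is the receptor through which Sema3e acts without a neuropilin and is a guidance receptor of blood vessels. It had 3.17, 9.73, 2.82 and 11.2 CPM in F371, M374, M390 and M456. The controls ran from 0.719 through a median of 1.83 to 5.19 CPM (mean 2.16 ± 1.46). The minimum of the low-count filter, 10 reads at the median library size, was met by all 4 knockouts and by 2 of the 7 controls, so Plxnd1 entered the test through the group in which it was higher. Without that filter its adjusted p was 0.027, and it did not pass the filter when libraries were thinned to the smallest. All knockouts were above 6 of the 7 controls, and F371 and M390 were below control M477. The log2 fold change was 2.15 ± 0.59 (edgeR adjusted p = 0.017), with log2 ratios of 2.51, 1.01 and 1.89 in the batches. With the marker score or library size as a covariate the log2 fold change was 0.57 or 2.09. M477 also had the highest marker score of the controls (-2.99), and the part of that score was not tested. Markers of endothelial and mural cells summed to 33.5 to 146 CPM in the knockouts and 25.2 to 163 CPM in the controls, and 1 of 10 tested passed as higher in the knockouts. The fitted log2 fold change was above 0 for 9 of the 10, with a median of 0.74. Their part in the change of Plxnd1 was not tested.

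Plxnb2 (ENSMUSG00000036606, chr15:89155546-89182018) is a class B plexin needed by granule cell precursors and a receptor of class 4 semaphorins. It had 17.3, 14.1, 17.4 and 24.0 CPM in the same knockouts. The controls ran from 4.37 through a median of 15.8 to 23.6 CPM (mean 14.4 ± 6.32). The knockouts lay inside the range of the controls except M456, just above it, and the log2 ratios within batches 1 to 3 were 0.91, 1.88 and 0.43. The log2 fold change was 0.99 ± 0.32 (edgeR adjusted p = 0.038), and the call was lost in 15 of 23 alternative settings. With the marker score or library size as a covariate the value was 1.24 or 1.53. Plxnb1, its relative, had 7.21, 16.8, 7.76 and 16.4 CPM in the knockouts against 3.22 to 12.8 CPM in the controls (median 8.55), with a log2 fold change of 0.99 ± 0.39 (edgeR adjusted p = 0.072; 1.00, 1.15 and 0.77 within the batches).

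Plxna3, a class A plexin that pairs with neuropilins, had 2.60, 7.66, 8.0 and 4.39 CPM in the knockouts against 0.719 to 6.70 CPM in the controls (median 4.28). Its log2 fold change was 1.37 ± 0.70 (edgeR adjusted p = 0.16), and the batch 3 log2 ratio had the other sign (2.21, 1.86 and -0.16). Plxna1, Plxna2 and Plxnc1 did not pass either, with log2 fold changes of -0.45, 0.53 and 0.14.

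Netrin 3 (Ntn3; ENSMUSG00000117406, chr17:24203831-24209387) is a secreted relative of netrin 1. It had 15.9, 15.6, 5.88 and 22.4 CPM in F371, M374, M390 and M456, and the controls ran from 2.76 through a median of 9.73 to 14.4 CPM (mean 9.0 ± 4.21). The knockouts of batches 1 and 3 were above all controls, and M390 was above the control of its own batch. The log2 fold change was 1.18 ± 0.34 (edgeR adjusted p = 0.022), with log2 ratios of 1.38, 0.97 and 1.01 in the 3 batches. With the marker score or library size as a covariate the log2 fold change was 1.40 or 1.11. The call was lost in 7 of 23 alternative settings, both covariate fits and the M-tagged animals alone among them. Ntn3 overlaps Tbc1d24, and reads of the overlap cannot be assigned here. Ntn1, the classical attractant, had 19.6, 14.1, 8.0 and 21.2 CPM in the same knockouts and 5.51 to 14.5 CPM in the controls (median 5.92). Its log2 fold change of 1.11 ± 0.42 had an edgeR adjusted p of 0.065, with log2 ratios of 1.53, 0.24 and 1.17 in the batches.

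Markers of other cells were counted too, beside 10.9% of all tested genes that were higher in the knockouts and 13.4% that were lower. Of the granule cell markers 10 of 16 were higher in the knockouts and 0 lower, with summed levels of 907 to 2229 CPM in the knockouts and 710 to 1284 CPM in the controls. Bergmann glia and astrocyte markers were higher in 8 of 16 (741 to 1787 CPM against 673 to 1036). Oligodendrocyte markers were higher in 3 of 17 (497 to 1222 CPM against 440 to 905), microglia markers in 3 of 10 (29.7 to 163 CPM against 38.4 to 78.7), and interneuron and unipolar brush cell markers in 4 of 9 (121 to 263 CPM against 77.4 to 134). Choroid plexus markers were higher in 2 of 5 (267 to 609 CPM against 273 to 426), and the 1 tested marker of oligodendrocyte precursors was higher. Endothelial and mural markers were higher in 1 of 10 (33.5 to 146 CPM against 25.2 to 163). None of these lists had a lower marker, and no marker was at 0 in all libraries. Of 20 Purkinje markers 4 were higher and 2 lower. The part of those cells in the members' changes was not tested.

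M456 was the highest library in 15 of 31 tested members (48.4%), against 17.0% of all tested genes. It was the lowest library in 1 member (3.23%), against 16.7% of all tested genes. No other library was the highest in more than 3 of the members. Of the 6 members that rose, all had M456 as their highest library. With M456, the only knockout of batch 3, left out 0 members passed, in a fit where batch 3 no longer bears on genotype. The fitted values of these 6 then stayed above 0, the lowest being Sema6b at 0.52. A kept sign is no separate test, because the 6 were chosen in a fit that shares the other libraries.

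**Figure D4:**
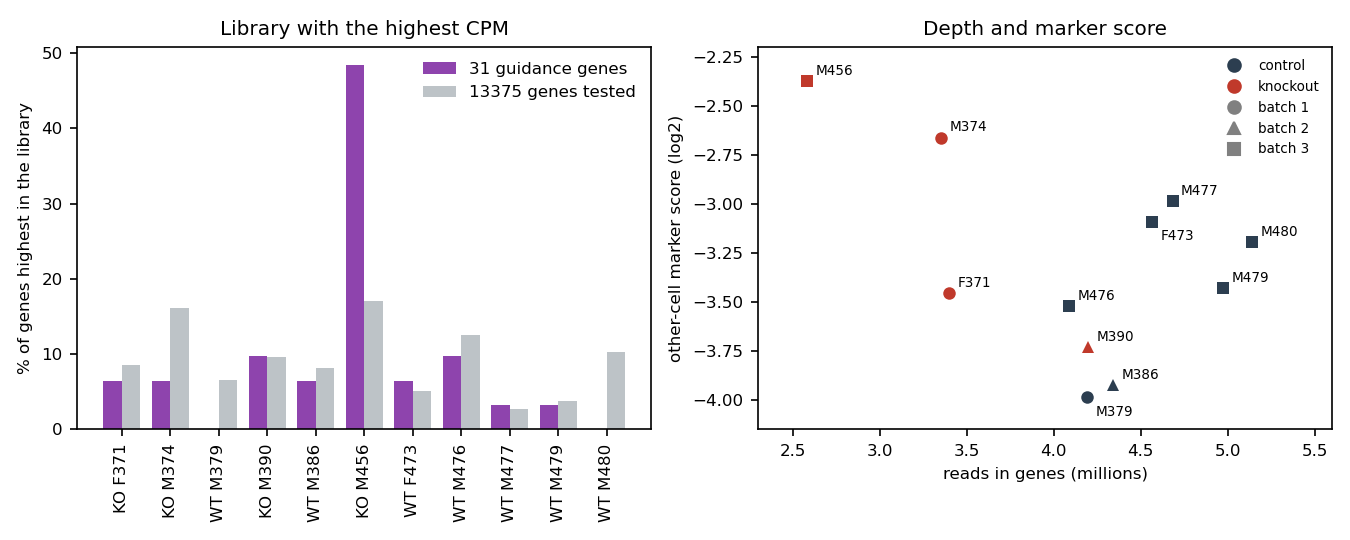
Left, percent of genes whose CPM was highest in each library, for the 31 tested guidance genes and for all 13375 tested genes; right, reads in genes (axis as labelled) against the marker score in log2 units, 1 point per library. M456 stands at 48.4% for the guidance genes and at the lowest depth and highest score.

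The promoters of the members, whether they passed the genotype test or not, were compared with all RefSeq promoters for the letters before their start sites. RefSeq promoters (build GRCm38.p6) matched 36 of the 48 genes, with 49 start sites. Sema3b, the member that fell, had no match. The 120 bases before the most upstream start site in the table are printed for the 6 genes that rose, on the gene's strand, with the GC box GGGCGG, searched on both strands, in capitals. The windows are Ntn3 at chr17:24209388-24209507 (minus strand), Plxnb2 at chr15:89180789-89180908 (minus), Plxnd1 at chr6:115995006-115995125 (minus), Sema4f at chr6:82939770-82939889 (minus), Sema5a at chr15:32244693-32244812 (plus) and Sema6b at chr17:56140344-56140463 (minus). Those of Plxnb2 and Plxnd1 lie inside the annotated span of the gene, the others before it.
Ntn3: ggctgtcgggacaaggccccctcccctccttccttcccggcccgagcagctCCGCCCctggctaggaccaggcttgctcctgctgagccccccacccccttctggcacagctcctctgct
Plxnb2: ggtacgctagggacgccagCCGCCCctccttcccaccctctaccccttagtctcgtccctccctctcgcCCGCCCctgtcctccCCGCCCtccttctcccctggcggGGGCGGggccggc
Plxnd1: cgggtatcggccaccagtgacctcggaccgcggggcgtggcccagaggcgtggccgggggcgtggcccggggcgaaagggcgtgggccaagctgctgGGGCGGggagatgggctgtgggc
Sema4f: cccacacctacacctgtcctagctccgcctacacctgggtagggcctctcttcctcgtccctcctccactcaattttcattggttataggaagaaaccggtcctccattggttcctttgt
Sema5a: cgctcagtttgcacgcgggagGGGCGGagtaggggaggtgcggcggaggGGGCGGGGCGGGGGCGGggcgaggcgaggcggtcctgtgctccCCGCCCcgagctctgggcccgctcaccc
Sema6b: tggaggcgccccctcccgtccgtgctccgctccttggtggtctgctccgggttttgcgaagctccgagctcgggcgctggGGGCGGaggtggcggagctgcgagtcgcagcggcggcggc

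Sema5a held 5 GC boxes in its window, Plxnb2 held 4, Ntn3, Plxnd1 and Sema6b held 1 each, and Sema4f held none. Over the 250 bases before the start, the GC box was in 32 of 49 member promoters (65.3%) and in 32.7% of all 32851 promoters of the table. Members' promoters were also richer in G and C, with a median of 65.0% against 52.0%. These medians take 1 start per gene, the most upstream (36 members and 27025 genes), while the motif counts take every start site. The comparison is with all promoters of the table and not with those of the tested genes. The FoxO motif GTAAACA was in 0 of the 49 and in 3.17% of all promoters, and the TATA motif TATAAA was in 1 of the 49 (2.04%) and in 12.4% of all promoters; these counts are descriptions of letters only.

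The 17 untested members were too low to test. Among the ligands, Sema3c had 25 reads over the knockouts and 62 over the controls, Sema3e 26 and 52, Sema3g 17 and 10, Sema5b 4 and 27, Slit1 2 and 26, Slit3 5 and 48, Ntn4 35 and 37, and Ntn5 0 and 2. Among the receptors, Plxnb3 had 1 and 54 reads, Robo1 11 and 30, Robo3 1 and 4, and Robo4, a Robo of blood vessels, 23 and 21. Of the 23 knockout reads of Robo4, 20 came from M390. The antisense genes Plxna4os1 and Plxna4os2 had 21 and 11, and 0 and 1, while Plxna4os3 had no read. A gene with no read in either group is limited only to 0.220 CPM by the 4 knockouts together and to 0.0940 CPM by the 7 controls together, for counting error alone.

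Plxnb3, a class B plexin found on glia, had 23.0 times as many reads per library total in the controls (95% counting interval 3.96 to 927), but the controls of batches 1 and 2 had 0 and 4 of its 54 control reads. Sema3d had 42 reads in the knockouts and 20 in the controls. The 42 came from M374 (22 reads) and M456 (20 reads), and F371 and M390 had none. M374 and M456 are the libraries with the highest marker scores, and the part of that score was not tested. Without a filter on low counts Sema3d had a log2 fold change of 3.63 (edgeR adjusted p = 0.028).

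Other genes of the guidance pathways were read from 5 lists of partner genes, in which 21 of 69 tested genes passed (30.4%, against 24.4% of all genes). Of 8 tested semaphorin coreceptors and partners, 1 rose and 0 fell (median log2 fold change 0.07). It was Cntn2, a contactin that is a semaphorin coreceptor and a granule cell axon protein, from 30.4 ± 15.6 CPM to 48.9 ± 31.7 CPM (log2 fold change 1.16 ± 0.27, edgeR adjusted p = 0.0080). Neuropilins 1 and 2 did not pass, at -0.33 and 0.48. Of 9 tested netrin, Slit and Unc5 partners 1 rose and 2 fell: Rgma, a neogenin ligand (2.31 ± 0.66, from 1.62 to 5.48 CPM; the filter minimum was met by 3 knockouts and 2 controls), Nell2, a Robo3 ligand (-0.41 ± 0.11, from 307 to 237 CPM), and Dscam, a netrin receptor (-0.72 ± 0.21, from 87.4 to 49.6 CPM).

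Among the intracellular partners of plexins, 3 of 19 rose and 2 fell, with a median of -0.21. Gipc1, an adaptor that binds plexins, fell by 1.27 ± 0.17 on the log2 scale, from 95.3 ± 17.2 to 38.5 ± 2.00 CPM (edgeR adjusted p = 0.0014). Arhgef12, an exchange factor bound by class B plexins, rose by 0.78 ± 0.17, Rap1a, a GTPase that plexins inactivate, by 0.60 ± 0.13, and Rap1b by 0.36 ± 0.11. Dpysl5, a member of the collapsin response mediator family, fell by 0.77 ± 0.27.

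Of the 20 intracellular partners of Robo and Dcc receptors 5 rose and 3 fell, with a median of 0.31. The tyrosine kinases Abl2 and Abl1 moved in opposite directions (1.17 ± 0.21 and -0.81 ± 0.19). Srgap2, a GTPase-activating protein of the family that Robo recruits, went from 400 ± 22.6 to 269 ± 53.8 CPM (-0.54 ± 0.10), and Pitpna, a phosphatidylinositol carrier that binds Dcc, rose by 0.54 ± 0.12. Without M456, 2 of the 69 passed.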

How the data were processed

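RNA bound to HA-tagged ribosomes was measured in 4 knockout and 7 control libraries. The authors deposited whole-number read counts per gene, made with STAR and HTSeq on GRCm38 per the submitters' processing notes. Their versions, the annotation release and the strand setting were not given in the sources used here, and replicates were not pooled. The 5 summary lines of each file were left out, of which reads in no feature came to 6.11 to 7.76% in the controls and 7.29 to 12.0% in the knockouts. Genes passing edgeR's filterByExpr (13375) were scaled by TMM and tested in R 4.3.3 with edgeR 4.0.16 quasi-likelihood, all 11 libraries, batch and genotype as terms, 7 residual degrees of freedom, and Benjamini-Hochberg adjustment at 0.05 over all genes. limma 3.58.1 and DESeq2 1.42.0 served alternatives.

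The rule for the members uses gene symbols alone, but it and the lists were chosen with earlier results of these data known. Values are given for each member that passed, for the 10 with the highest control CPM (no gene lengths were used here) and for the 5 of largest fold change at 1 CPM or more that did not pass. From 4 of the 5 partner lists up to 4 genes that passed, those with the smallest p, are named, and Dpysl5, Nrp1 and Nrp2 were added after their values were seen. The genes of the other list are not reported here. On simulated counts for the knockout against control comparison (13375 genes), 57 of 100 genes changed 2-fold and 85 of 100 changed 4-fold were recovered, with 7 unchanged genes called. The simulation changed few genes and held no shared marker difference between genotypes. It therefore does not measure errors that such a difference would bring to the real calls. Libraries of 1 group always differed beyond counting noise (chi-square of at least 2.46 per degree of freedom). Alternatives were the batch term, normalization, filter, test, the M-tagged animals alone, each of 2 covariates (marker score, library size), thinning to the smallest library, leaving out batch 2 and leaving out each library. The CPM behind the group overlap counts used TMM scaling. Intervals and floors (3 counts) cover counting error only.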

Additional observations from a re-analysis of the deposited data

Results flagged for a closer look

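Among the 44 groups of libraries examined for a single distant value (22 measures in each genotype), 2 held one, and chance alone gives about 1 in 20. Plxnd1 stood at 5.19 CPM in control M477, against 0.719 to 2.48 CPM in the other controls. Unc5d stood at 144 CPM in control M386, the control of batch 2, against 97.8 to 115 CPM in the other controls, and the knockout of that batch, M390, had 142 CPM.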

How the results depend on the processing

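No paired analysis was possible because the animal tags are not shared between genotypes; batch was a term of the main model instead.

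The number of members that passed (7) was 3 without the batch term, 11 with DESeq2, 0 with the marker score and 0 with library size as a covariate, and 0 to 10 with one library left out. Members higher (6) came to 0, 10, 0 and 0 in those settings and 0 to 9 with one library left out. Members lower (1) came to 3 without the batch term, 0 with M-tagged animals only, 0 with limma-voom, 0 with either covariate and 0 to 1 with one library left out. All genes called (3257) were 0 with either covariate (1698 with an unadjusted p under 0.05 for the marker score, 1841 for library size), and 335 to 4649 with one library left out (335 without M456, 522 without M379). Partner genes called (21) were 0 with either covariate and 2 to 31 with one library left out. Members whose groups do not overlap (1) were 1 to 4. The marker score difference (0.72) was 0.896 without batch 2 (exact permutation p = 0.0556, the smallest that the remaining arrangements allow). It was 0.593 to 0.896 with one library left out. The causes were not tested.

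Signs turned for genes that had not passed: with the marker score as a covariate Sema4g (0.035), Plxna4 (0.062) and Sema6d (-0.41), and with library size Robo2 (0.094), Plxna4 (0.39), Sema3a (0.12), Unc5d (-0.030), Sema7a (-0.15) and Sema6c (-0.46). Sema3a also turned without the batch term (0.063) and when libraries were thinned to the smallest (0.0053). With one library left out Plxna4 ranged from -0.30 to 0.30 and Unc5d from -0.058 to 0.16, both turning without M456. No sign turned for the 7 that passed, in any alternative run, but these runs share libraries with the fit that chose the 7. DESeq2 size factors and library totals alone each gave 7 calls, the same genes. A batch 2 of 1 library per genotype and a batch 3 of 1 knockout limit what the ratios within batches can show, and low members such as Sema4a and Sema3f carry SEs of 0.66 and 1.20.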
